A study of Mus musculus with 6 samples.

Results

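Subunits of voltage-gated sodium channels were followed through 8 genes, Scn2a1, Scn3a, Scn8a, Scn9a and Scn10a for pore-forming alpha subunits and Scn2b, Scn3b and Scn4b for beta subunits. They were chosen by gene name, and all 8 were found among the 26728 entries of the deposited expression table. RNA sequencing compared the carotid body with the adrenal medulla of adult C57/BL6 mice that received no treatment, with 3 pooled libraries of each tissue. Each pool came from 10 mice, and held 18 carotid bodies or 10 adrenal medullas. The first organ senses oxygen in arterial blood where the carotid artery divides. The second, inside the adrenal gland, releases catecholamines into the circulation. The dissected organs were sequenced whole, without sorting, so that nerve, vessel and connective tissue cells contributed as well. Adrenal cortex markers were high in the adrenal medulla pools, at a summed 13678 to 17960 RPKM, against 94.5 to 214 RPKM in the carotid body pools. The labels do not say whether the pools came from different mice, and p-values measure only the spread between these 3 pools of each tissue. Libraries held 13266225 to 16445925 reads. Carotid body pool 2 and adrenal medulla pool 3 stood apart in fat cell markers, which summed to 3682 RPKM in carotid body pool 2, with 416 and 898 RPKM in the other carotid body pools, and to 2295 RPKM in adrenal medulla pool 3, with 742 and 230.3 RPKM in the other adrenal medulla pools. In adrenal medulla pool 3 most of the sum was 1 gene, Cfd, at 1641 RPKM, with 275 and 11.6 RPKM in adrenal medulla pools 1 and 2. Calls that rest on either library are given with and without it.

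Voltage-gated sodium channels open on depolarisation and carry the upstroke of the action potential in neurons, muscle and excitable endocrine cells. The large alpha subunit forms the pore and the voltage sensors, and the small beta subunits, which have a single membrane span and an immunoglobulin fold outside the cell, adjust gating and surface levels. In mouse chromaffin cells, the secretory cells of the adrenal medulla, the channels encoded by Scn3a and Scn9a are known to carry sodium current, while sensory axons that enter the carotid body have sodium channels of their own.

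Scn2b and Scn4b are neighbouring genes on chromosome 9, transcribed in the same direction, and of this pair Scn4b alone passed the test between the tissues. Their start regions are shown for that reason, from 250 bases before to 50 bases after the transcription start on the + strand, as RefSeq gives them for build GRCm38.p6, with each CpG dinucleotide in capitals.
Scn4b, chr9:45138374-45138673: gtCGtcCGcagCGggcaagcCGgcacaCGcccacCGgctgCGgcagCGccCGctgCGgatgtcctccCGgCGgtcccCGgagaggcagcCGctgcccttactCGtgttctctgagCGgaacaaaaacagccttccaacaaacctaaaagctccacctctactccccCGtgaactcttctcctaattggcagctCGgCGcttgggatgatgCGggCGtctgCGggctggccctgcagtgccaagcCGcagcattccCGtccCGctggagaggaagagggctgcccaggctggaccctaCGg
Scn2b, chr9:45117626-45117925: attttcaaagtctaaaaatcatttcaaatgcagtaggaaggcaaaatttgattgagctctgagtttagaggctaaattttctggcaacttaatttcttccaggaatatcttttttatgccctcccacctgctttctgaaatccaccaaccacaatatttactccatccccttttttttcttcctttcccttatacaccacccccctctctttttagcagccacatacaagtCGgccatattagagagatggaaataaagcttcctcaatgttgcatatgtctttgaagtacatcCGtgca
The Scn4b region had 66.3% G and C and 26 CpG dinucleotides, and the Scn2b region had 38.3% and 2. Over all 32851 start regions of the same length the medians were 52.7% and 7. RefSeq start regions were matched for 6 of the 8 genes, 8 regions in all. The letters CAGCACC, part of the element bound by the neuronal gene repressor REST, were searched on both strands and occurred in 0 of these 8 regions and in 7.14% of all start regions. The letters ACGTG, the core of the hypoxia response element, occurred in 0 of the 8 and in 19.6% of all, and GGGCGG, the GC box, in 0 of the 8 and in 35.7% of all. TATAAA, the TATA box, occurred in 1 of the 8, at the second start of Scn2a1, and in 13.6% of all.

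The beta subunit gene Scn4b was the 1 member that passed the test between the tissues, higher in the carotid body. Scn4b encodes a beta subunit that is disulphide-linked to the alpha subunit and whose cytoplasmic tail can block open channels. Its level was 1.46, 1.03 and 1.63 RPKM in carotid body pools 1, 2 and 3, against 0.105, 0.0825 and 0.129 RPKM in adrenal medulla pools 1, 2 and 3. RPKM is reads per kilobase of mRNA, scaled to a fixed total of reads per library. The 3 carotid body pools all lay above the 3 adrenal medulla pools, as they did for 22.3% of all tested genes. These levels rest on 90, 58 and 108 reads in the carotid body and 6, 5 and 9 reads in the adrenal medulla, and the ratio of the mean levels was 13.0. After log2(RPKM + 1), a scale on which low genes show too small a difference, carotid body minus adrenal medulla was 1.09 ± 0.15 (SE, n = 3 pools each, limma adjusted p = 0.00101). On log2(RPM + 1), where RPM is reads scaled to the same fixed total without regard to length, the difference was 2.22 ± 0.23 (SE, limma adjusted p = 0.000194). Scn4b reached 1 RPKM in the carotid body pools alone, so it passed the filter on low values through the tissue where it is high.

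Of the 8 genes, 5 reached 1 RPKM in at least 3 libraries and were tested with limma over 13357 genes. At an adjusted p under 0.05 the carotid body was higher for 1 of these 5 genes, the adrenal medulla for 0, and 4 were not called. Over all tested genes 21.9% were called, 14.2% with the carotid body higher and 7.73% with the adrenal medulla higher, so 1 call in 5 is close to the background. At an unadjusted p under 0.05, limma again found 0 with the adrenal medulla higher, on RPKM and on reads. Scn2a1 and Scn10a stayed under the filter. Scn9a has no mRNA length in the deposited table, and its values there are raw read counts, so it has no RPKM. 

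**Figure D1:**
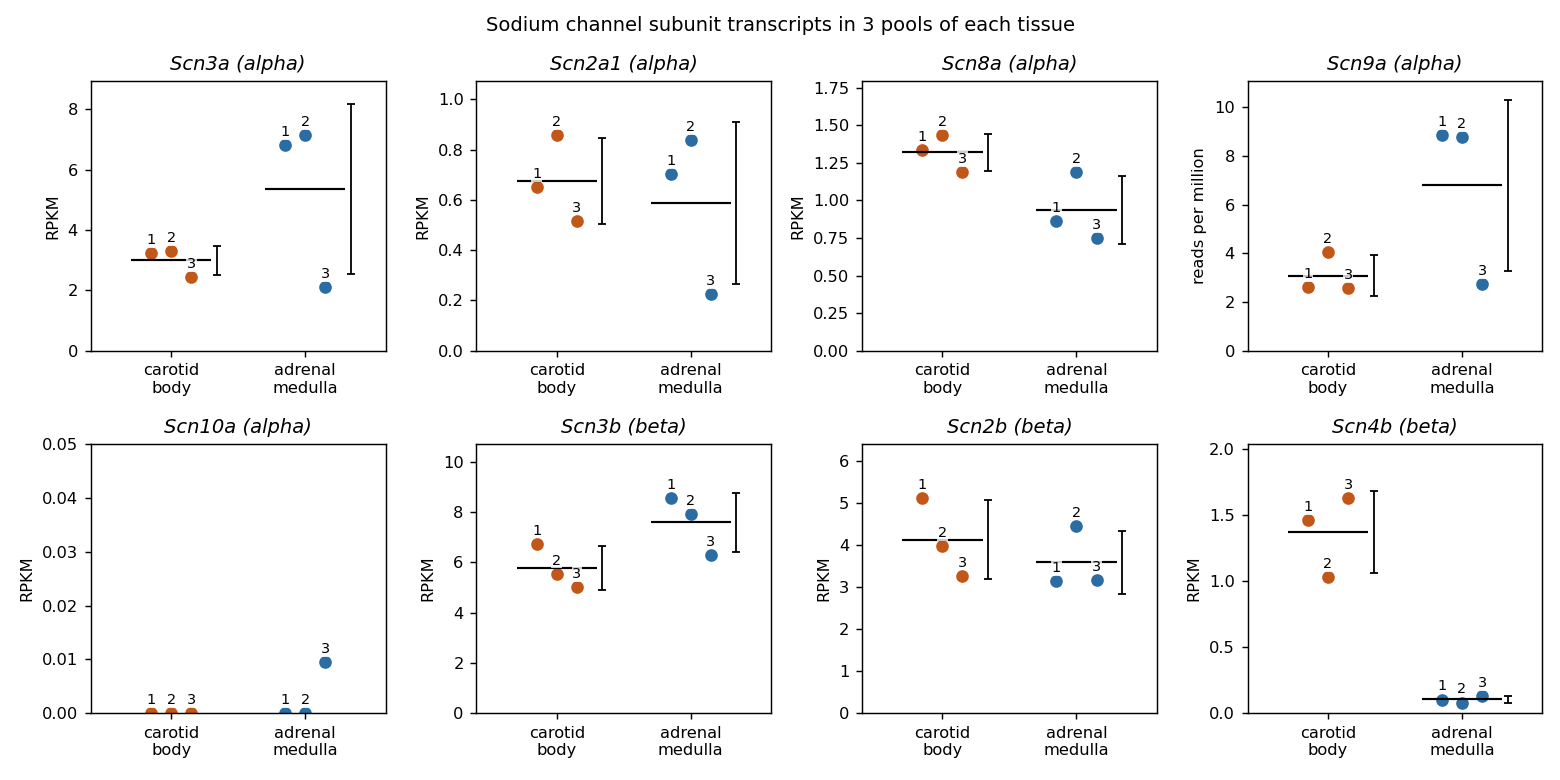
Level of each sodium channel subunit gene in carotid body pools and adrenal medulla pools, in RPKM, or in RPM for Scn9a; points are pools with their numbers, lines are means and bars are SD (n = 3 pools). Scn10a is shown without a mean. Scn4b lies between 1.03 and 1.63 RPKM in the carotid body and between 0.0825 and 0.129 RPKM in the adrenal medulla, and adrenal medulla pool 3 is the lowest pool of its tissue for Scn3a, Scn2a1, Scn8a, Scn9a and Scn3b.

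Among the alpha subunits with an RPKM value, Scn3a was the highest in both tissues. Scn3a, prominent in the embryonic brain and in neuroendocrine cells, was at 3.23, 3.31 and 2.44 RPKM in the carotid body pools, against 6.82, 7.15 and 2.12 RPKM in the adrenal medulla pools. Adrenal medulla pools 1 and 2 were above every carotid body pool and adrenal medulla pool 3 was below them all, so the groups overlapped. The log2 difference was -0.55 ± 0.37 (SE, limma adjusted p = 0.357), with a 95% interval of -1.39 to 0.28. Without adrenal medulla pool 3 it was -1.01 and Scn3a was called higher in the adrenal medulla (adjusted p = 0.00876), in a fit that called 11.0% of all genes that way.

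Scn9a, the channel of sensory and sympathetic neurons, was likewise highest in adrenal medulla pools 1 and 2. It had 38, 54 and 40 reads in the carotid body pools, or 2.62, 4.07 and 2.57 RPM, against 119, 125 and 45 reads in the adrenal medulla pools, or 8.86, 8.76 and 2.74 RPM. Adrenal medulla pools 1 and 2 were above the carotid body pools, and pool 3 lay within their range. Since these are counts, Scn9a was tested with limma on log2(RPM + 1) over the 16403 entries with at least 10 reads in at least 3 libraries, of which 22.1% were called, 7.51% with the adrenal medulla higher. The log2 difference of Scn9a was -0.82 ± 0.40 (SE, adjusted p = 0.192), with a 95% interval of -1.72 to 0.08. Without adrenal medulla pool 3 it was -1.28 and Scn9a was called (limma adjusted p = 0.00775), in a fit that called 10.6% of entries in that direction. Part of Scn9a, 180 bases of its exons, overlaps the antisense gene Gm13629 in GENCODE M21. Whether strand was kept is not given in the sources used here, and reads of the overlap cannot be told apart.

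Scn8a, the channel of nodes of Ranvier and axon initial segments, was at 1.34, 1.44 and 1.19 RPKM in the carotid body pools, against 0.866, 1.19 and 0.751 RPKM in the adrenal medulla pools. The carotid body pools all lay above the adrenal medulla pools, as they did for 22.3% of all tested genes. The lowest carotid body pool was at 1.189 and the highest adrenal medulla pool at 1.186 RPKM. The difference did not pass the test, at 0.27 ± 0.16 (SE, limma adjusted p = 0.301) with a 95% interval of -0.10 to 0.63. Scn2a1, found in initial segments and unmyelinated axons, was under 1 RPKM in every pool, at 0.650, 0.859 and 0.517 in the carotid body against 0.702, 0.838 and 0.224 in the adrenal medulla. Its pools overlapped apart from adrenal medulla pool 3, the lowest of the 6. On its 32 to 104 reads per library, limma gave a log2 difference of 0.28 ± 0.40 (SE, adjusted p = 0.703, 95% interval -0.63 to 1.19).

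Scn10a, the tetrodotoxin-resistant channel of nociceptive sensory neurons, had 0 reads among 43345442 in the carotid body and 1 read among 44156870 in the adrenal medulla. A count of 0 over the carotid body pools allows up to 3 reads, or 0.0108 RPKM. Scn10a was thus not detectable in the carotid body at this depth, and both tissues are at or under that limit, so no fold is given. That limit covers counting error only, since amplified reads without molecular identifiers are not independent molecules. Of the other genes listed as sensory neuron markers, the heat and capsaicin receptor gene Trpv1 had no read in the carotid body, Pou4f1 had none there either, and Mrgprd had none in any library.

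The beta subunits Scn3b and Scn2b had the highest levels per length in the carotid body among the 7 genes with an RPKM value. Without division by mRNA length, Scn3a was above both. Over the carotid body pools Scn3a had 1231 reads, against 1064 of Scn3b and 814 of Scn2b. Scn3b, whose product binds alpha subunits without a covalent bond, was at 6.74, 5.55 and 5.01 RPKM in the carotid body pools, against 8.56, 7.91 and 6.30 RPKM in the adrenal medulla pools. Carotid body pool 1 lay above adrenal medulla pool 3, so the tissues overlapped, and the log2 difference of -0.34 ± 0.22 (SE) was not called (limma adjusted p = 0.336, 95% interval -0.84 to 0.16). Scn2b, whose product is disulphide-linked to the alpha subunit, was at 5.14, 3.98 and 3.28 RPKM in the carotid body pools, against 3.15, 4.47 and 3.19 RPKM in the adrenal medulla pools. Its pools overlapped too, and the log2 difference was 0.15 ± 0.23 (SE, adjusted p = 0.718, 95% interval -0.36 to 0.67).

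By mean level the order in the carotid body was Scn3b at 5.76 ± 0.882, Scn2b at 4.13 ± 0.937, Scn3a at 2.99 ± 0.482, Scn4b at 1.38 ± 0.311, Scn8a at 1.32 ± 0.124 and Scn2a1 at 0.675 ± 0.172 RPKM (SD, n = 3 pools). The ranges of Scn3b and Scn2b overlapped, as did those of Scn2b and Scn3a and those of Scn4b and Scn8a. In the adrenal medulla the order was Scn3b at 7.59 ± 1.17, Scn3a at 5.36 ± 2.82, Scn2b at 3.60 ± 0.752, Scn8a at 0.934 ± 0.226, Scn2a1 at 0.588 ± 0.323 and Scn4b at 0.106 ± 0.0232 RPKM. There the range of Scn3a reached over those of Scn3b and Scn2b, and Scn8a and Scn2a1 overlapped. Both orders are per length of mRNA. In reads summed over the pools, Scn3a was the highest in each tissue, with 2185 in the adrenal medulla against 1415 of Scn3b. In adrenal medulla pool 3 alone Scn3b was above Scn3a, at 442 against 333 reads. Between the tissues Scn4b changed place, level with Scn8a in the carotid body and below Scn2a1 in the adrenal medulla, and the means of Scn2b and Scn3a, whose ranges overlapped in both tissues, changed order.

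Scn3a was a smaller share of the summed alpha subunit level in every carotid body pool than in any adrenal medulla pool. Over the 4 alpha genes with an RPKM value, Scn3a was 61.9%, 59.1% and 58.8% of the sum in the carotid body pools, against 81.3%, 77.9% and 68.3% in the adrenal medulla pools. Scn8a was 25.6%, 25.6% and 28.7% in the carotid body pools, against 10.3%, 12.9% and 24.2% in the adrenal medulla pools. Scn2a1 was 12.5%, 15.3% and 12.5% in the carotid body pools, against 8.37%, 9.14% and 7.22% in the adrenal medulla pools. None of these 3 shares overlapped between the tissues, and adrenal medulla pool 3 was the nearest to the carotid body for Scn3a and Scn8a. Each had a two-sided exact permutation p of 0.1, the smallest that 3 pools against 3 allow. After Benjamini-Hochberg adjustment over 4 shares it was 0.133, so no share could pass 0.05. The shares of a pool sum to the whole, so a lower Scn3a share means a higher share of the other genes together. The 3 shares are thus not separate results. The summed level of the 4 genes was 5.22, 5.61 and 4.15 RPKM in the carotid body pools, against 8.39, 9.18 and 3.10 RPKM in the adrenal medulla pools. The Scn3a level was 2.42, 2.31 and 2.05 times the Scn8a level in the carotid body pools, against 7.87, 6.03 and 2.82 times in the adrenal medulla pools.

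**Figure D2:**
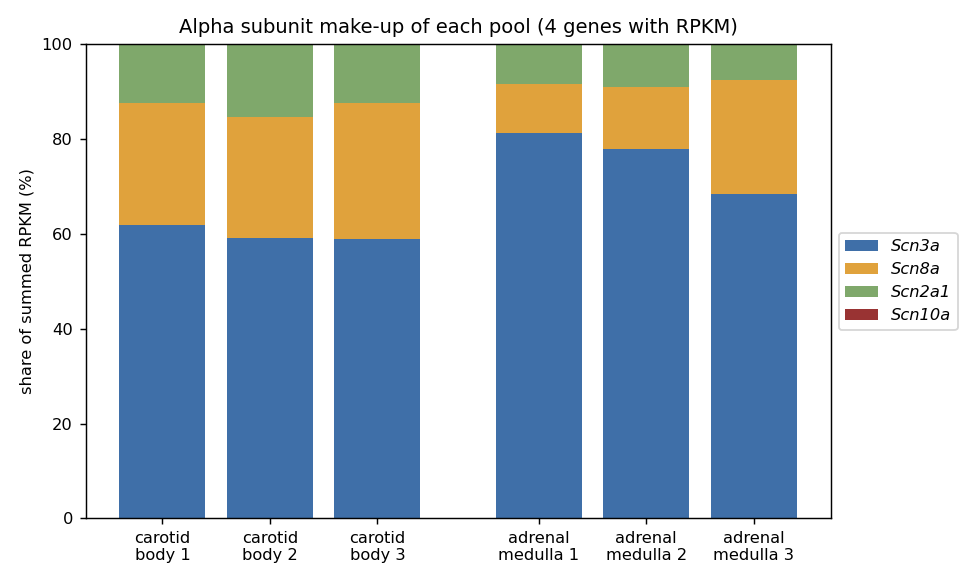
Share of each alpha subunit gene in the summed RPKM of the 4 alpha genes with a listed mRNA length, 1 bar a pool, carotid body at the left and adrenal medulla at the right. Scn3a takes 58.8% to 61.9% in the carotid body and 68.3% to 81.3% in the adrenal medulla, and Scn10a is too low to see.

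Adrenal medulla pool 3, which decides the calls of Scn3a and Scn9a, was low in long mRNAs in general. Among tested genes over 8 kb its log2(RPKM + 1) had a median of -0.53 relative to the mean of adrenal medulla pools 1 and 2 (496 genes), against 0.29 for genes up to 1 kb (1204 genes). The same median over genes over 8 kb was 0.39 and 0.15 for adrenal medulla pools 1 and 2 and -0.21 to 0.11 for the carotid body pools, each relative to the other 2 pools of its tissue. The alpha genes with a listed length over 8 kb are Scn3a, Scn8a and Scn2a1, at 9.56, 11.34 and 8.69 kb, and the beta genes are listed at 4.24 to 4.56 kb. Scn3a was 1.36 below pools 1 and 2 in adrenal medulla pool 3 (deviation -1.36), where 2.02% of genes over 8 kb were lower still. Scn2a1 deviated there by -0.53 and Scn8a by -0.21, with 49.8% and 77.6% of such genes lower. The summed level of the chromaffin and glomus cell markers was 21351 RPKM in that pool, between 17310 and 28884 RPKM in pools 1 and 2. Gene by gene, 5 of these 9 markers were lowest there (Ddc, Chgb, Scg2, Slc18a1 and Slc18a2), while the adrenaline enzyme gene Pnmt was highest there, at 2708, 4225 and 6042 RPKM in adrenal medulla pools 1, 2 and 3. The synaptic protein gene Snap25, which chromaffin cells use for secretion, was at 163, 198 and 64.0 RPKM in the adrenal medulla pools. The part of mRNA length in the results of Scn3a and Scn9a was not tested.

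**Figure D3:**
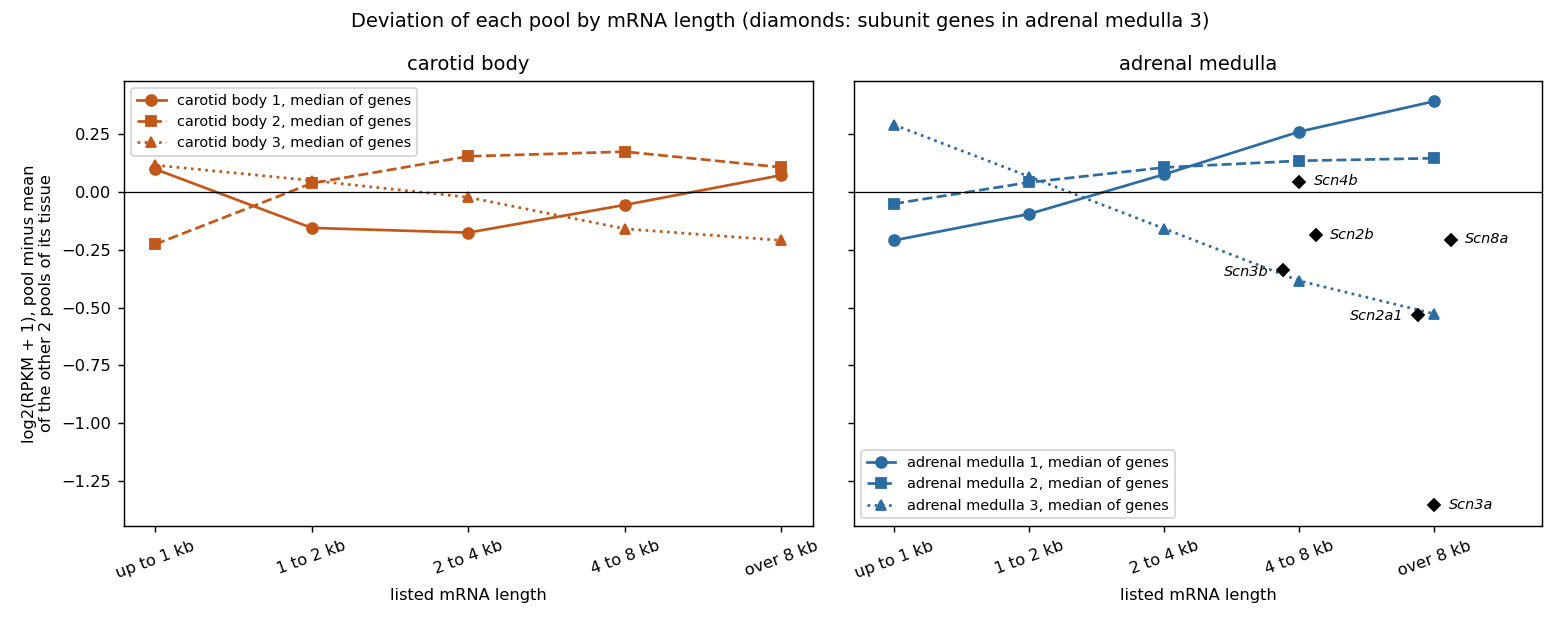
Median difference in log2(RPKM + 1) of each pool from the mean of the other 2 pools of its tissue, over genes grouped by listed mRNA length in kilobases, for carotid body pools at the left and adrenal medulla pools at the right. Black diamonds are sodium channel genes in adrenal medulla pool 3, where the median goes to -0.53 over 8 kb and Scn3a is at -1.36.

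Other subunits and binding partners of sodium channels were called in both directions. The fixed lists hold 33 such genes, of which 23 were tested. The carotid body was higher for 7 of them and the adrenal medulla for 1, against 14.2% and 7.73% of all tested genes, and 15 were not called. This split depended on the filter and on libraries: it was 5 against 4 with no filter on low values, and 4 against 3 when pool 2 of the carotid body and pool 3 of the adrenal medulla were left out. Their median log2 difference was 0.47, against 0.02 over all tested genes. Scn7a, whose product senses sodium in glia and does not open with voltage, was at 22.8, 42.6 and 22.6 RPKM in the carotid body pools, against 5.47, 5.27 and 1.14 RPKM in the adrenal medulla pools (log2 2.71, limma adjusted p = 0.00286). All its carotid body pools lay above all its adrenal medulla pools, as was so for 22.3% of all tested genes. The leak channel gene Nalcn was not called (log2 -0.14, limma adjusted p = 0.844). Without adrenal medulla pool 3 it was at -0.52, not called (adjusted p = 0.160). Without carotid body pool 2 as well, it was at -0.70 and called higher in the adrenal medulla (adjusted p = 0.0422). A further 4 alpha subunit genes of the list stayed under the filter.

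Of 20 tested partners, 5 were called with the carotid body higher (14.2% of all tested genes), 1 with the adrenal medulla higher (7.73% of all tested genes), and 14 were not called. Sptbn1, a spectrin of the membrane skeleton, was at 103, 117 and 109 RPKM in the carotid body pools, against 41.0, 38.8 and 36.9 RPKM in the adrenal medulla pools (log2 1.48, limma adjusted p = 0.000855). Ank3, which encodes ankyrin-G, the anchor of sodium channels at initial segments and nodes, was at 11.4, 16.2 and 15.3 RPKM in the carotid body pools, against 5.92, 8.15 and 3.94 RPKM in the adrenal medulla pools (log2 1.16, adjusted p = 0.0176). Its call ended when carotid body pool 2 was left out (limma adjusted p = 0.0630), when carotid body pool 3 was (0.0686), and when pool 2 of the carotid body went together with pool 3 of the adrenal medulla (0.0525). Fgf12, a non-secreted fibroblast growth factor homologue that binds the alpha subunit tail, was at 2.43, 3.29 and 3.10 RPKM in the carotid body pools, against 1.05, 1.14 and 0.692 RPKM in the adrenal medulla pools (log2 1.01, adjusted p = 0.00466). The axonal adhesion gene Cntn1 (log2 1.06, adjusted p = 0.0362) and the ubiquitin ligase gene Nedd4l (log2 0.58, adjusted p = 0.0458) complete the 5, and both lost their calls without any single carotid body pool, at adjusted p of 0.0643 to 0.117 for Cntn1 and 0.0707 to 0.138 for Nedd4l. Cntn1 also lost it without adrenal medulla pool 2 (0.0670), and Nedd4l without adrenal medulla pool 1 (0.126), 2 (0.111) or 3 (0.0655). With no filter both missed the threshold (0.0575 for Cntn1 and 0.0617 for Nedd4l), as did Nedd4l with a constant of 0.1 (0.0535) and with quantile scaling (0.115). Without both carotid body pool 2 and pool 3 of the adrenal medulla, adjusted p was 0.0663 for Cntn1 and 0.101 for Nedd4l.

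Nrcam, an adhesion protein of nodes and initial segments, was the 1 tested partner higher in the adrenal medulla, at 1.25, 0.786 and 0.865 RPKM in the carotid body pools, against 4.79, 4.46 and 2.36 RPKM in the adrenal medulla pools (log2 -1.28, limma adjusted p = 0.00588). The call was kept in each of the other fits that tested it. On log2(RPM + 1) of all entries, limma tested 29 of the other subunits and partners. It called 4 of them with the adrenal medulla higher, against 7.51% of all tested entries. Besides Nrcam, the 4 held 3 genes under 1 RPKM in the carotid body. These were Fgf14, another alpha subunit binding factor (log2 -1.43, adjusted p = 0.0131), Sptbn4, the spectrin of initial segments (-1.15, adjusted p = 0.0112), and Tnr, a nodal matrix protein (-2.15, adjusted p = 0.000689). Tnr had 2, 0 and 3 reads in the carotid body pools, against 85, 37 and 57 reads in the adrenal medulla pools, so it met the filter of 10 reads through the tissue where it is high.

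**Figure D4:**
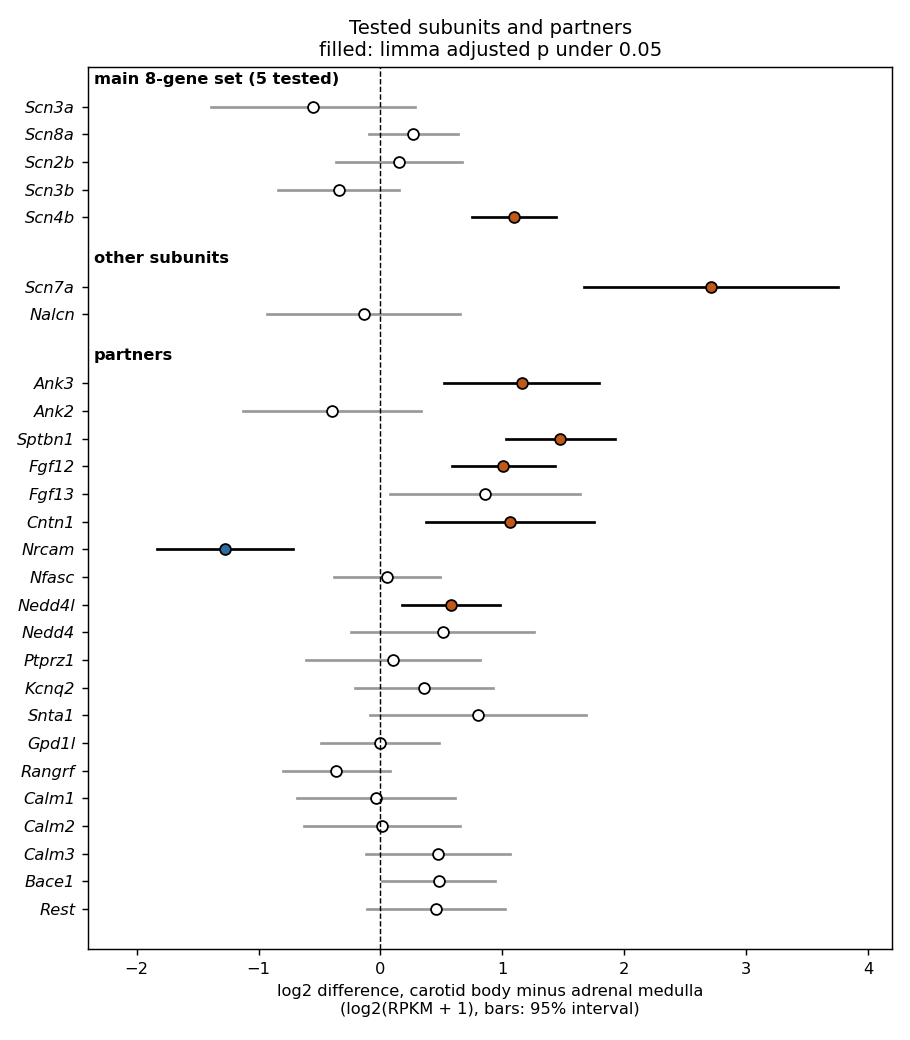
Log2 difference, carotid body minus adrenal medulla, on the log2(RPKM + 1) scale for the 5 tested genes of the set, 2 other subunits and 20 tested partners, with 95% intervals from limma (n = 3 pools each). Filled points passed an adjusted p under 0.05, orange where higher in the carotid body and blue where higher in the adrenal medulla; Scn4b is at 1.09 and Scn3a at -0.55.

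Cell type markers moved with the tissues beside these results. In whole tissue, fewer cells of a type and less RNA per cell cannot be told apart. Of 13 tested glia markers 13 were higher in the carotid body, with a summed level of 664 to 824 RPKM in the carotid body pools against 152 to 171 RPKM in the adrenal medulla pools. Of 16 neuron markers, none of them at 0 in any pool, 4 were higher in the carotid body (Gap43, Prph, Nefh and Stmn2), 1 was higher in the adrenal medulla (Rbfox3) and 11 were not called, with a sum of 1291 to 1517 against 737 to 1014 RPKM. Smooth muscle and pericyte markers were higher in the carotid body for 9 of 10 tested genes (2550 to 3088 against 106 to 110 RPKM), fibroblast markers for 10 of 10 (2454 to 3143 against 75.6 to 185 RPKM) and endothelial markers for 7 of 10 (444 to 536 against 158 to 213 RPKM). The adrenal medulla was higher for 10 of 10 tested markers of adrenal cortex (94.5 to 214 RPKM in carotid body pools against 13678 to 17960 RPKM), and for 7 of 9 chromaffin and glomus markers, with 1 higher in the carotid body (2547 to 3390 against 17310 to 28884 RPKM). Of skeletal and cardiac muscle markers, 2 of 5 tested were higher in the carotid body (Tnni2 and Tnnt3) and 1 in the adrenal medulla (Tnnt2), with sums of 24.6 to 33.8 against 21.5 to 30.9 RPKM and Ckm, Myh4, Myh1, Tnnt3 and Myh6 at 0 in at least 1 pool. Of 7 tested fat cell markers 0 were called, and their sums in each pool are given above. The part of these markers in the results of Scn4b and of the partners was not tested.

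The gene with the highest mean level of the set, Scn3b, and the gene with the largest log2 difference, Scn4b, were each set against all tested genes by Pearson's r of log2(RPKM + 1) over the 6 libraries. The closest to Scn3b were Trim26 (r = 0.989), Gm20362 (0.988), Tceb1 (0.985), Tgfbr3 (0.984) and Mageh1 (0.983). The closest to Scn4b were Tmem204, Cma2, Tpsb2, Hspb2 and Itpr3, with r of 0.998 to 0.9996. Tpsb2 and Cma2 encode proteases of mast cells, and Tpsb2 was at 23.8, 11.2 and 29.6 RPKM in the carotid body pools, against 0, 0.129 and 0.168 RPKM in the adrenal medulla pools. Like Scn4b, all of Tmem204, Cma2, Tpsb2, Hspb2 and Itpr3 were lowest in carotid body pool 2 and highest in carotid body pool 3 within that tissue. They were picked by r over these same libraries, so the shared order is no separate result. These r values rest on 6 libraries in 2 tissues, and are a description of these libraries.

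Alpha subunit genes are similar in sequence, and their reads can be shared. Of the distinct stretches of 32 bases in the protein-coding transcripts of GENCODE M21, 12.3% of those of Scn2a1, 11.8% of those of Scn3a, 7.34% of those of Scn9a, 3.46% of those of Scn10a and 0.415% of those of Scn8a also occurred in another gene of the Scn family. For the beta subunit genes the share was 0%. How shared reads were counted is not given in the sources used here, so the levels of Scn2a1, Scn3a and Scn9a are uncertain. The percentages do not bound that uncertainty, since reads gained from another gene grow with the level of that gene. Scn2a1 and Scn9a shared most with Scn3a. In adrenal medulla pool 1, Scn3a had 876 reads, against 82 of Scn2a1 and 119 of Scn9a. How far the results of these 3 genes depend on each other was not tested.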

How the data were processed

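The deposited table lists RPKM values made by the authors for 6 libraries, for 23511 of 26728 entries with an mRNA length; the 3217 entries without one, Scn9a among them, hold raw read counts as deposited. The submitters' processing notes name Bowtie 0.9.8 and build mm9; how reads were counted is not given in the sources used here. Per the labels' protocols, total RNA was amplified with a MessageAmp kit, which primes at the poly(A) tail. RPKM times length over the smallest such product gave whole reads within 0.01 for 106276 of 106276 values, and all reads summed to the RPKM denominator in 6 of 6 libraries (13266225 to 16445925 reads).

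Tissues were compared by limma 3.58.1 (R 4.3.3) with a variance trend, fitted to log2(RPKM + 1) of 13357 genes with 1 RPKM in at least 3 libraries, Benjamini-Hochberg adjusted and two-sided. Scn9a could not enter that fit, which had been planned for it, because its unit is counts, so limma was also fitted to log2(RPM + 1) of the 16403 entries with at least 10 reads in at least 3 libraries. That fit and a GENCODE length for Scn9a were chosen after seeing the data, the first in place of planned count models. Both fits were tested on simulated data. The 8 genes and the lists were chosen with earlier results of these data known. Named genes are the 8 genes, called genes of the lists and the 5 closest genes by r; others, such as Snap25, Nalcn and genes under the filter, were named after their values were seen. Gene symbols came from the table. Some genes counted in the lists are not reported here by name. Libraries with the same pool number deviated together from their tissue means (r = 0.259, 0.128 and 0.473 over genes), while pairs of different numbers ranged from -0.622 to 0.291, the highest being carotid body 2 with adrenal medulla 1, above 2 of the 3 matched pairs. Each matched r was over 0.1, but so was that of this unmatched pair, and the labels do not state a pairing. A pairing is thus not established. The main fits left the pool numbers out, and the replicate block among the alternatives pairs libraries by number.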

Additional observations from a re-analysis of the deposited data

How the results depend on the processing

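Scn4b was called higher in the carotid body in each of the 12 alternatives on RPKM, with log2 differences of 0.94 to 2.83 and adjusted p of 0.000426 to 0.00697, and 1 of the 8 genes was called in that direction throughout. The count with the adrenal medulla higher, 0 of 5, was 1 without adrenal medulla 3 (0 to 1 over the fits that leave out 1 library), 1 without carotid body 2 and adrenal medulla 3 (Scn3a, log2 -1.07, adjusted p = 0.0146), and 2 of 7 on reads without adrenal medulla 3. Scn9a differed by -1.45 without both libraries (adjusted p = 0.00744). Scn2b, Scn3b and Scn8a were called in none of these alternatives and kept their direction. Scn2a1 ranged from -0.18 to 0.56 without 1 library, changing sign without adrenal medulla 3 (-0.18) and without both libraries (-0.34), and was called in none. With the replicate block, the counts stayed at 1 and 0 for the 8 genes, and were 9 and 1 for other subunits and partners; Scn9a was at -0.82 (adjusted p = 0.0885), so the block changed no call of the 8 genes.

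Other subunits and partners with the carotid body higher, 7, ranged from 4 to 6 without 1 library, with 4 without carotid body 2 and 4 without carotid body 3, and were 4 without carotid body 2 and adrenal medulla 3. Those with the adrenal medulla higher, 1, were 1 to 2 without 1 library, 3 without both libraries, 4 with no filter (where those with the carotid body higher were 5), 4 on reads, and 5 on reads without adrenal medulla 3; more genes were tested with no filter and on reads. Shares of the alpha sum moved when taken from reads over 5 genes, to 54.4% in carotid body and 67.6% in adrenal medulla for Scn3a, to 11.1% and 6.68% for Scn2a1, and to 28.7% for Scn8a in carotid body. With a GENCODE length of 9.84 kb for Scn9a, Scn3a was at 56.4% in carotid body and 69.0% in adrenal medulla. Count models planned for the recovered reads were fitted and then set aside, because the deposited column is RPKM, and their values are not given; of these, DESeq2 called Scn9a higher in the adrenal medulla and edgeR did not, so the missing call of Scn9a depends on the test. At 5 to 9 reads of Scn4b and 32 to 125 reads of Scn2a1 and Scn9a in adrenal medulla libraries, depth limits their precision.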

Other observations

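Sensory neuron markers summed to 8.31 to 12.3 RPKM in the carotid body pools, against 15.4 to 23.1 RPKM in the adrenal medulla pools. Autonomic neuron and ganglion markers summed to 188, 248 and 274 RPKM in the carotid body pools, against 309, 401 and 272 RPKM in the adrenal medulla pools. The actin-binding protein gene Avil, a sensory neuron marker, was at 2.45, 2.24 and 1.82 RPKM in the carotid body pools, against 0.0982, 0.139 and 0.561 RPKM in the adrenal medulla pools (log2 1.34, limma adjusted p = 0.00111). It reached 1 RPKM in the carotid body pools alone, so it passed the filter through the tissue where it is high. Of 4 tested sensory neuron markers 2 were called, and the other 7 of 11 stayed under the filter. Of 7 tested autonomic neuron and ganglion markers, 0 were called with the carotid body higher and 2 with the adrenal medulla higher, the transcription factor gene Gata3 (log2 -4.32) and the nicotinic receptor subunit gene Chrnb4 (log2 -1.62).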
